A study of Mus musculus with 17 samples.

Results

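The 10 genes described here encode the MHC class II antigen presentation machinery of the mouse. They are H2-Aa, H2-Ab1, H2-Eb1, H2-DMa, H2-DMb1, H2-DMb2, H2-Oa, H2-Ob, Cd74 and Ciita, taken by symbol from the 35321 gene symbols of the count table. All 10 passed the filter on low counts, which 14920 genes passed. RNA abundance had been measured by sequencing of polyadenylated RNA from hematopoietic stem and progenitor cells, the immature cells that form blood, sorted from bone marrow of wild-type C57BL/6J mice. The mice had received an intraperitoneal injection. The 5 groups were PBS (phosphate-buffered saline, labelled day 0, 5 libraries), lipopolysaccharide (LPS, an outer membrane molecule of bacteria that sets off inflammation) for 24 h (3 libraries) or for 72 h (3 libraries), and LPS with a blocking antibody against the receptor of interleukin-10 (IL-10R), an anti-inflammatory cytokine, for 24 h (3 libraries) or for 72 h (3 libraries). All mice were wild type, every treated group had LPS, and no group had the antibody without LPS or a control antibody. The labels give neither the sex nor the age of the mice nor how many mice gave a library. Amounts of LPS and antibody are in micrograms in the design text and in milligrams in the sample protocol, and neither unit was assumed. The list was drawn up with results of these data known, and the pattern of H2-Ob, high with LPS alone at 72 h and low with the antibody, was part of the reason for it. H2-Ob is therefore described without a test, and the other 9 genes were tested.

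MHC class II molecules display peptides from endosomes to CD4+ T cells. An alpha and a beta chain assemble around the invariant chain encoded by Cd74, which fills the peptide groove. H2-Aa pairs with H2-Ab1 in I-A, and H2-Eb1 encodes the beta chain of I-E. H2-Ea, the alpha chain gene of I-E, had no row in the count table. Whether I-E is made cannot be read from these counts. In late endosomes H2-DM, made of H2-DMa with H2-DMb1 or H2-DMb2, removes the last fragment of the invariant chain and lets peptides exchange, and H2-O, made of H2-Oa with H2-Ob, restrains H2-DM. Ciita encodes the transactivator on which class II transcription depends: it does not bind DNA itself but joins a complex of RFX, NF-Y and CREB on the X and Y boxes upstream of the genes. In bone marrow, class II is best known from B cells, dendritic cells and macrophages, and lower levels are known on stem and progenitor cells.

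The 8 H2 genes lie together on chromosome 17 of GRCm38, from H2-Oa (chr17:34092340-34095234, plus strand) to H2-Eb1 (chr17:34305867-34316674, plus strand), in the GENCODE M21 annotation. H2-Ob spans chr17:34238903-34254414 on the plus strand. Ciita lies on chromosome 16. RefSeq windows of GRCm38.p6, each 300 bases long with 250 before the start site, were given for 7 of the 10 genes (8 windows, 2 of them for H2-DMa). The upstream sequences below are shown because the genes moved together and because H2-Ob, which moved most, can be set beside its partner H2-Oa. Capitals mark an upstream element (ACNGATG, the end of the X box, or else GCAAC) and a downstream ATTGG (the core of the Y box), and each sequence is read 5′ to 3′ on the strand of the gene.
H2-Ob (chr17:34238655-34238904, plus strand): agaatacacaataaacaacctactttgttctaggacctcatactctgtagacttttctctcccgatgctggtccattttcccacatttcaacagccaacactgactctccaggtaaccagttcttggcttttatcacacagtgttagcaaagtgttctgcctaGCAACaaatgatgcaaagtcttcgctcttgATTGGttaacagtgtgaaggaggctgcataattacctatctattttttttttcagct
H2-Oa (chr17:34092283-34092360, plus strand): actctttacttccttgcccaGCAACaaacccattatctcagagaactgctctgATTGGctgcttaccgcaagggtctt
H2-Aa (chr17:34287847-34287924, minus strand): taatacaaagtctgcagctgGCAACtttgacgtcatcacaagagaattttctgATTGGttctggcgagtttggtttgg
H2-Eb1 (chr17:34305759-34305832, plus strand): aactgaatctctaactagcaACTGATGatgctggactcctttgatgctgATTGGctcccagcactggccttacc
H2-DMb1 (chr17:34153080-34153154, plus strand): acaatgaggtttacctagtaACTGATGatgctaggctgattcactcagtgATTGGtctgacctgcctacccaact
H2-DMb2 (chr17:34145109-34145183, plus strand): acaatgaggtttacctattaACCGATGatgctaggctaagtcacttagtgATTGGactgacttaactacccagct

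In these 6 genes the downstream ATTGG began between 43 and 90 bases before the RefSeq start site. The pair ACNGATG followed by ATTGG with 10 to 30 bases between them, searched on both strands, was present in H2-Eb1, H2-DMb1 and H2-DMb2 and in 0.158% of all 32851 windows (52 windows). The pair GCAAC followed by ATTGG with 15 to 35 bases between them was present in H2-Aa, H2-Eb1, H2-Oa and H2-Ob and in 1.02% of all windows. The GCAAC pair was added after the sequences had been seen. Alone, ATTGG was in 37.4%, GCAAC in 35.2% and ACNGATG in 9.85% of all windows. Neither pair was found in the 2 windows of H2-DMa. The GCAAC pair of H2-Ob, whose GCAAC begins 87 bases before the start site, was shared with H2-Oa, whose GCAAC begins 76 bases before it. In GENCODE M21 the outermost transcripts of H2-DMb1, H2-DMb2 and H2-Oa begin upstream of the right end of the stretch shown, so these stretches lie wholly or partly inside the annotated genes. A match of letters is a description and not a measured binding site.

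The 17 libraries held between 10516722 and 16006001 counts on genes. Levels are CPM, that is counts relative to the library total, here adjusted with TMM factors, which lay between 0.947 and 1.12 except for LPS 24 h library 1 (0.799). Stem and progenitor markers (Kit, Cd34, Ly6a, Procr, Mecom, Hlf, Meis1 and Gata2) were present in every group, with sums between 908 and 1830 CPM. Nothing in the labels says whether libraries of a group came from separate mice, so the p-values measure the spread between these libraries, which may be technical. In the antibody groups the libraries numbered 1 stood apart for several members, as given below. The labels give no batch.

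Per kilobase of exon, Cd74, which lies on chromosome 18, was the most abundant member in PBS libraries at 216.7 CPM per kb. It was followed by the chains of the classical molecules, H2-Ab1 at 73.1 ± 20.6 (SD, n = 5), H2-Eb1 at 64.1 ± 18.6 and H2-Aa at 47.2 ± 13.9 CPM per kb, whose ranges overlapped. H2-DMa had 43.3 ± 4.77 CPM per kb, within the range of H2-Aa, and H2-DMb1 had 27.6 ± 4.76 CPM per kb, with all libraries below those of H2-DMa. The H2-O genes came next and their ranges overlapped, with H2-Ob at 15.5 ± 3.48 and H2-Oa at 13.3 ± 1.28 CPM per kb. H2-DMb2 (5.75 ± 0.631 CPM per kb) and the regulator Ciita (1.79 CPM per kb) were lowest. Lengths are of all annotated exons in GENCODE M21, and the annotation used for counting is not given in the sources used here.

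At 24 h of LPS the fitted levels of all class II genes were lower than in PBS libraries. In edgeR's quasi-likelihood test with Benjamini-Hochberg adjustment, 5 of the 9 tested genes passed (adjusted p below 0.05), all of them lower. Over all 14920 genes, 37.6% passed in either direction and 18.5% were lower. The median log2 change of the 9 genes was -0.88, against -0.03 over all genes. For 8 of the 9 tested genes, all but Ciita, every LPS library was below every PBS library, which held for 22.2% of all genes. In sorted bulk cells, fewer cells of a type and less RNA per cell cannot be told apart.

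Among the genes of the classical chains, H2-Aa was at 137, 224, 127, 162 and 246 CPM in the PBS libraries and at 67.2, 93.9 and 91.7 CPM in the LPS 24 h libraries. Its groups did not overlap and it fell by 1.09 on the log2 scale (SE 0.381, edgeR adjusted p = 0.0350). H2-Ab1, its partner chain, went from 188 ± 52.9 CPM (SD, n = 5) to 103 ± 5.35 CPM (n = 3) and fell by 0.87 (SE 0.314, edgeR adjusted p = 0.0394). H2-Eb1 did not pass, with a log2 change of -0.95 (edgeR adjusted p = 0.0979). Cd74, the invariant chain, had 281, 493, 235, 340.5 and 469 CPM with PBS and 176, 181 and 165 CPM with LPS. Although these libraries did not overlap, the log2 change of -1.07 did not pass (edgeR adjusted p = 0.0654). With the replicate number as a block, which leaves out PBS libraries 4 and 5, 3 of the 9 genes passed in place of 5, and edgeR's adjusted p was 0.115 for H2-Aa and 0.102 for H2-Ab1. The same libraries with no block gave 2 genes, with an edgeR adjusted p of 0.114 for H2-Aa and 0.128 for H2-Ab1, so these calls were lost with the left-out libraries whether or not the block was fitted. Both calls were also lost without PBS library 2, without PBS library 5, or without any of the 3 LPS libraries, with an adjusted p of up to 0.150.

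The smallest adjusted p-values of the members at 24 h were those of H2-DMa and H2-Oa, from the peptide editor and its inhibitor. H2-DMa was at 153, 165, 122, 159 and 147 CPM with PBS and at 67.6, 82.5 and 69.4 CPM with LPS. It fell by 1.03 on the log2 scale, a 2.04-fold difference (SE 0.174, edgeR adjusted p = 0.000743). H2-Oa, one chain of the H2-DM inhibitor, was at 19.4, 19.4, 16.1, 17.8 and 20.8 CPM with PBS and at 10.7, 9.61 and 10.2 CPM with LPS. It fell by 0.88 (SE 0.210, edgeR adjusted p = 0.00485), and both genes kept the call in all 15 alternative fits. H2-DMb1 fell by 0.56 (SE 0.187, edgeR adjusted p = 0.0280), from 46.3 ± 8.01 to 31.4 ± 5.33 CPM. That call was lost without PBS library 2 (0.0668), LPS 24 h library 2 (0.0647) or LPS 24 h library 3 (0.128, all edgeR adjusted p). H2-DMb2 (log2 change -0.54, edgeR adjusted p = 0.163) and the transactivator Ciita (-0.57, edgeR adjusted p = 0.256) did not pass. Ciita had 15.2, 18.2, 12.1, 16.2 and 23.9 CPM with PBS and 6.12, 14.1 and 14.0 CPM with LPS, so its groups overlapped.

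**Figure D1:**
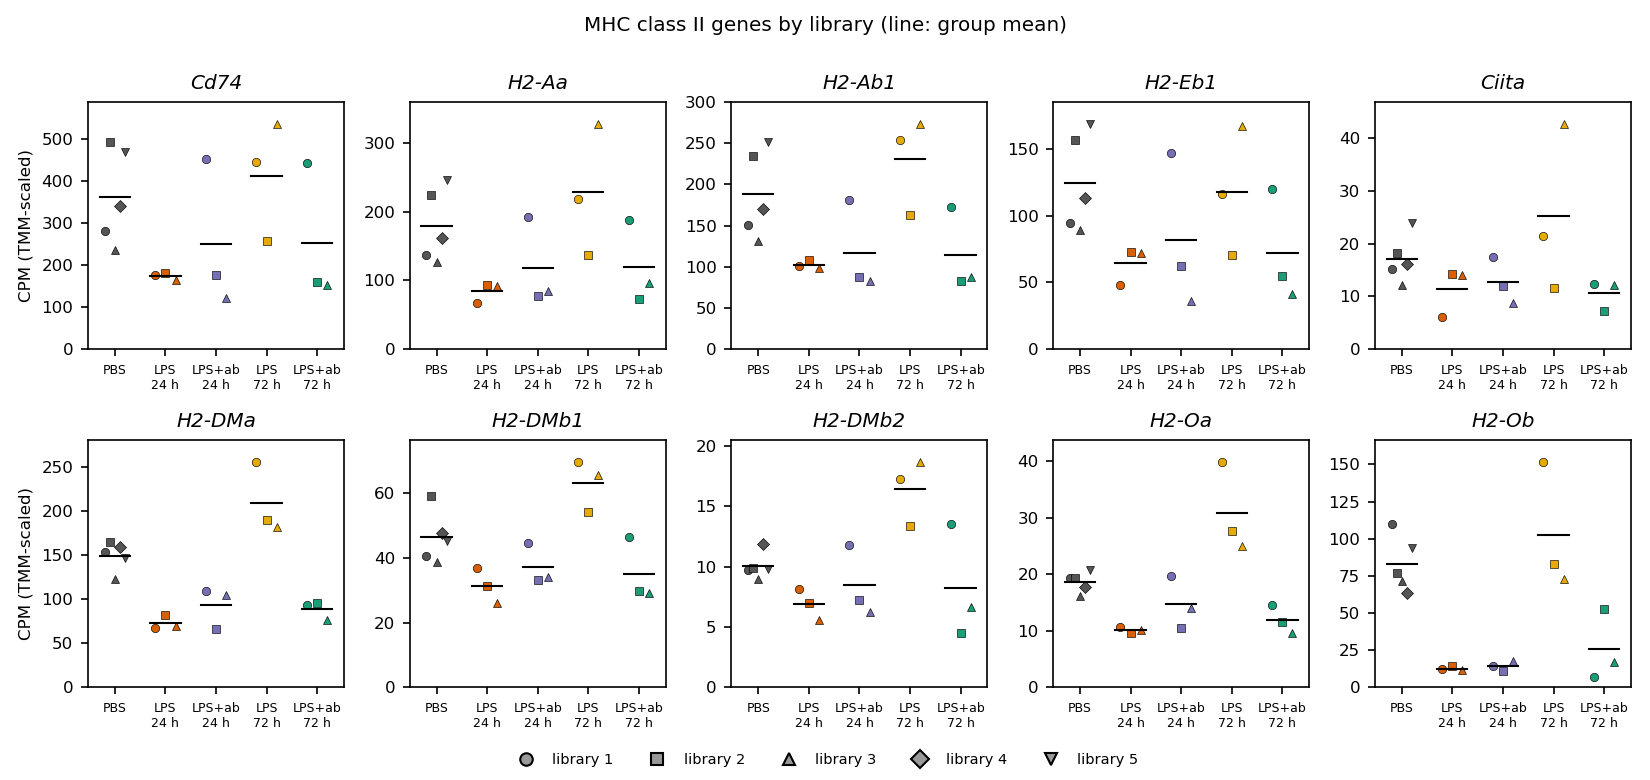
Level of each of the 10 genes in each of the 17 libraries, in TMM-scaled CPM on a linear axis from 0, with 1 point per library, the marker shape giving the library number and the line the group mean. H2-DMa, H2-Oa and H2-Ob are low in all LPS 24 h libraries and high in all LPS 72 h libraries, and in both antibody groups library 1 is the highest for Cd74, H2-Aa, H2-Ab1 and H2-Eb1.

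With the antibody added, the members at 24 h lay between the PBS and LPS levels or across both. Against PBS, only H2-DMa of the 9 genes passed, against 24.2% of all genes in either direction and 12.5% lower. H2-DMa was at 109.5, 65.7 and 105 CPM with LPS and antibody, below all PBS libraries, and fell by 0.68 (SE 0.171, edgeR adjusted p = 0.0132). This call was lost without antibody 24 h library 2 (edgeR adjusted p = 0.0749). All 9 changes were negative, with a median of -0.54. Library 1 of this group was far above libraries 2 and 3 for the classical chain genes and Cd74: H2-Aa was at 193, 77.2 and 84.0 CPM, H2-Eb1 at 147, 61.9 and 36.1 CPM and Cd74 at 453, 177 and 122 CPM. Without antibody library 1 at both times, a setting chosen after the values were seen, 6 of the 9 genes passed against PBS at 24 h. Set against LPS alone at 24 h, none of the 9 genes passed in edgeR, and nor did any of the 14920 genes (0%). At an unadjusted p below 0.05 there was 1 of the 9, H2-Oa (log2 change 0.54), beside 1.83% of all genes, and DESeq2 called 1 gene of all. The 9 changes were all positive, between 0.16 and 0.54.

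Between 24 h and 72 h of LPS most class II genes rose. In edgeR's test 6 of the 9 genes were higher at 72 h, and over all genes 31.1% passed in either direction and 14.7% were higher. The median change was 1.25 on the log2 scale against 0.02 over all genes. For 7 of the 9 tested genes every 72 h library lay above every 24 h library, which held for 22.4% of all genes. H2-Eb1 and Ciita overlapped.

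H2-DMa stood at 256, 190.4 and 181 CPM at 72 h and rose by 1.51 from 24 h, a 2.86-fold difference (SE 0.191, edgeR adjusted p = 0.000166). H2-Oa stood at 39.9, 27.7 and 25.0 CPM and rose by 1.60, or 3.04-fold (SE 0.232, edgeR adjusted p = 0.000274). The beta chains of H2-DM moved the same way: H2-DMb1 rose by 1.01 (SE 0.207, edgeR adjusted p = 0.00229) and H2-DMb2 by 1.25 (SE 0.329, edgeR adjusted p = 0.00981). These 4 calls were kept in all 13 alternative fits. H2-DMb1 was at 69.6, 54.3 and 65.8 CPM and H2-DMb2 at 17.2, 13.3 and 18.6 CPM at 72 h. The 2 genes share sequence, since 22.7% of the 50-base stretches of H2-DMb1 transcripts also occur in H2-DMb2, so part of their reads could have been split between them. Of the I-A chains, H2-Aa was at 219, 138 and 328 CPM and rose by 1.44 (SE 0.417, edgeR adjusted p = 0.0168). H2-Ab1 was at 254, 163 and 273 CPM and rose by 1.17 (SE 0.345, edgeR adjusted p = 0.0184). Both calls depended on single libraries. Without LPS 24 h library 1 or LPS 72 h library 3, edgeR's adjusted p was 0.0658 or 0.0890 for H2-Aa and 0.0520 or 0.0683 for H2-Ab1, and that of H2-Ab1 was 0.0616 without LPS 24 h library 3 and 0.0574 without LPS 72 h library 1. Cd74 (log2 change 1.25, edgeR adjusted p = 0.0567), Ciita (1.14, edgeR adjusted p = 0.0540) and H2-Eb1 (0.87, edgeR adjusted p = 0.175) did not pass. Cd74 at 445, 258 and 537 CPM and Ciita at 21.4, 11.6 and 42.6 CPM varied widely at 72 h, both with library 2 lowest and library 3 highest.

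Against PBS, none of the 9 genes passed at 72 h of LPS in edgeR's test, where 0.0201% of all genes did (3 genes). At an unadjusted p below 0.05 there were 4 of the 9, beside 11.4% of all genes, and DESeq2 called 1, H2-Oa (DESeq2 adjusted p = 0.0448). Changes were positive for 8 of the 9 genes, with a median of 0.45. For H2-DMa (log2 change 0.49), H2-DMb2 (0.71) and H2-Oa (0.72) every LPS 72 h library was above every PBS library, as in 4.96% of all genes, yet edgeR's adjusted p was 0.297, 0.379 and 0.199. The classical chain genes were near their PBS levels, with H2-Eb1 at 118 ± 48.5 CPM (n = 3) beside 125 ± 36.1 CPM in PBS (log2 change -0.08, SE 0.422). Without LPS 72 h library 3, the changes of H2-Aa (-0.019), Cd74 (-0.060) and Ciita (-0.067) were no longer positive.

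At 72 h, LPS with the antibody was compared with LPS alone to ask how the later response depended on IL-10R. All 9 tested genes had lower fitted levels with the antibody, and 3 of them passed edgeR's test, all from the H2-DM and H2-O group. Over all genes 15.1% passed in either direction and 6.48% were lower. All 9 changes were negative, with a median of -0.995 against 0.01 over all genes. H2-DMa was at 93.6, 95.5 and 76.3 CPM with the antibody, below every LPS 72 h library, and fell by 1.24, or 2.36-fold (SE 0.189, edgeR adjusted p = 0.00157). H2-Oa was at 14.6, 11.6 and 9.55 CPM and fell by 1.37, or 2.59-fold (SE 0.230, edgeR adjusted p = 0.00229). H2-DMb1 was at 46.4, 29.6 and 29.3 CPM and fell by 0.85 (SE 0.207, edgeR adjusted p = 0.0139). The calls of H2-DMa and H2-Oa were kept in all 14 alternative fits. That of H2-DMb1 was lost without LPS 72 h library 1 (0.0659), antibody 72 h library 2 (0.0592) or antibody 72 h library 3 (0.05 after rounding), and in the fit of the compared groups alone (0.0643, all edgeR adjusted p).

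The remaining 6 tested genes did not pass at 72 h. H2-DMb2 (log2 change -0.995, edgeR adjusted p = 0.0514), H2-Ab1 (-1.01, edgeR adjusted p = 0.0585) and Ciita (-1.25, edgeR adjusted p = 0.0602) lay close to the threshold. H2-Aa (-0.94, edgeR adjusted p = 0.128), H2-Eb1 (-0.72, edgeR adjusted p = 0.310) and Cd74 (-0.71, edgeR adjusted p = 0.310) did not. Library 1 again stood above the others in the antibody group: Cd74 was at 444, 161 and 154 CPM and H2-Aa at 188, 73.3 and 95.8 CPM. Ciita was at 12.4, 7.29 and 12.1 CPM and showed no such gap. With both antibody libraries numbered 1 left out, 8 of the 9 genes passed, all but Ciita. Among the 9 tested genes, the 3 that passed also had every antibody library below every LPS library, which held for 16.1% of all genes.

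The antibody libraries numbered 1 at 24 h and at 72 h share their number, and the deviations of same-numbered antibody libraries at the 2 times correlated over all genes (r = 0.791 for number 1, 0.0338 for number 2 and 0.721 for number 3). What these libraries share is not in the labels, and its part in the levels of the class II genes was not tested.

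Against PBS at 72 h, LPS with antibody left 2 of the 9 genes lower, beside 13.2% of all genes in either direction and 6.43% lower. H2-DMa fell by 0.76 (SE 0.172, edgeR adjusted p = 0.0148) and H2-Oa by 0.65 (SE 0.208, edgeR adjusted p = 0.0499). The H2-DMa call was lost without antibody 72 h library 3 (edgeR adjusted p = 0.0676), and the H2-Oa call was lost in 11 of 16 alternative fits, among them every fit that left out 1 library. Every other member had a negative change, and 7 of the 9 genes passed when both antibody libraries numbered 1 were left out. From 24 h to 72 h within the antibody groups none of the 9 genes passed in edgeR, none had an unadjusted p below 0.05, and 0% of all genes passed (4.26% at an unadjusted p below 0.05, and 2 genes with DESeq2). The 9 changes lay between -0.31 and 0.01.

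Whether the antibody difference itself changed from 24 h to 72 h was tested as an interaction. H2-DMa (-1.59, SE 0.266, edgeR adjusted p = 0.00831), H2-Oa (-1.91, SE 0.324, edgeR adjusted p = 0.00831) and H2-DMb1 (-1.10, SE 0.292, edgeR adjusted p = 0.0380) passed, 3 of the 9 genes. Over all genes 6.35% passed in either direction and 2.32% were lower. In each, as in the other tested genes, the antibody difference was positive at 24 h, without passing, and negative at 72 h. H2-DMa and H2-Oa kept the call in all 20 alternative fits. H2-DMb1 lost it in 12 of the 20, which include leaving out any of 8 single libraries (LPS 24 h library 2 or 3, LPS 72 h library 1 or 3, antibody 24 h library 1 or 3, antibody 72 h library 2 or 3), with an edgeR adjusted p of up to 0.102. The changes of the other 6 genes were also negative, between -1.06 and -1.42.

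**Figure D2:**
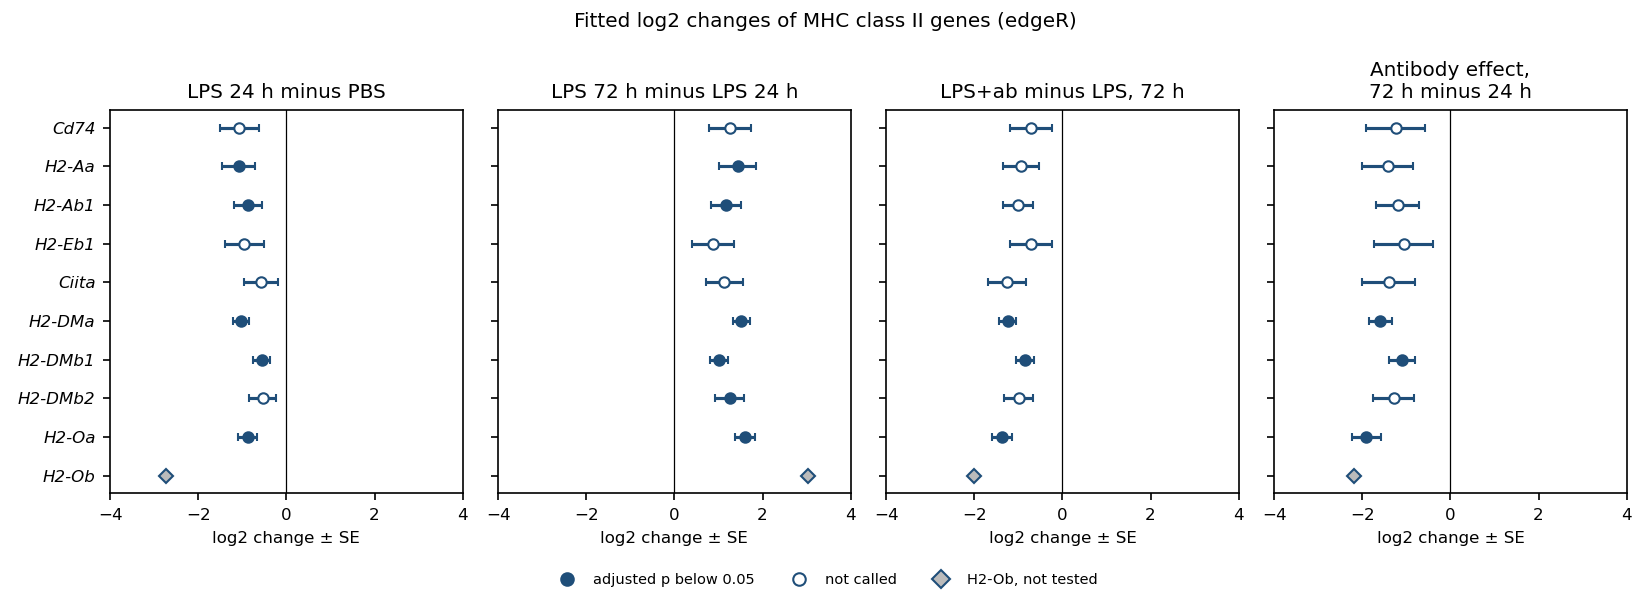
Fitted log2 changes (first group minus the other) with standard errors for the 10 genes in 4 comparisons, with filled circles for genes passing edgeR's test, open circles for genes that did not pass and diamonds for H2-Ob, drawn without error or test. All genes lie to the left of 0 at 24 h of LPS and to the right from 24 h to 72 h, and with the antibody at 72 h the filled circles are H2-DMa, H2-DMb1 and H2-Oa.

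H2-Ob, the beta chain of the H2-DM inhibitor, had the largest ratio of highest to lowest library among the members. In the PBS libraries it was at 110.1, 77.0, 71.7, 63.3 and 93.8 CPM. With LPS at 24 h it was at 12.1, 14.1 and 11.3 CPM, and with LPS and antibody at 24 h at 14.3, 10.9 and 17.7 CPM. All 6 LPS-treated libraries at 24 h were therefore far below all 5 PBS libraries. At 72 h of LPS it was at 152, 82.8 and 72.6 CPM, within or above the PBS range. Without library 1 its log2 change from PBS at 72 h was -0.096 in place of 0.30. In the antibody group at 72 h it was at 7.15, 52.7 and 16.9 CPM, below every PBS and every LPS 72 h library, with library 2 well above the others.

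As fitted differences, given as a description of a gene chosen for this pattern, H2-Ob was 6.63-fold lower at 24 h of LPS than in PBS (log2 change -2.73) and 8.16-fold higher at 72 h than at 24 h of LPS (3.03). With the antibody at 72 h it was 4.01-fold lower than with LPS alone and 3.26-fold lower than in PBS. The log2 changes behind these values depended on library 2 of the antibody group, without which they were -3.04 and -2.76, and on its library 1, without which they were -1.52 and -1.23. Of the members, library 2 of this group was the highest only for H2-Ob and, by a small margin, H2-DMa.

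H2-Oa and H2-Ob pair in 1 protein, and their count ratio within a library needs no scaling between libraries. In PBS libraries there were 5.67, 3.98, 4.44, 3.56 and 4.50 H2-Ob counts per H2-Oa count. With LPS at 24 h there were 1.14, 1.46 and 1.11, and with the antibody at 24 h 0.730, 1.04 and 1.26. At 72 h of LPS the ratio was 3.8, 2.99 and 2.90, within the PBS range in library 1 and below it in the others, and with the antibody it was 0.489, 4.55 and 1.77. The 3 antibody libraries at 72 h were thus the most spread, with library 1 below every library of the other groups and library 2 inside the PBS range. H2-Ob entered this ratio, so it is given without a test.

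The ratio of H2-Aa to H2-Eb1, neither of which was chosen by its pattern, was nearly the same in the 5 PBS libraries (1.45, 1.43, 1.42, 1.43 and 1.46). It was 1.40, 1.29 and 1.27 with LPS at 24 h, all below PBS, and 1.89, 1.95 and 1.96 with LPS at 72 h, all above PBS. The mean log2 ratio differed from PBS by -0.12 at 24 h and by 0.43 at 72 h (exact permutation p = 0.0179 for each, two-sided, the smallest that 3 against 5 libraries allow, and 0.119 after adjustment over 20 ratio tests). In both antibody groups library 3 had a ratio of 2.33, above every other library, while libraries 1 and 2 had 1.31 and 1.25 at 24 h and 1.57 and 1.34 at 72 h. The ratio of H2-DMa to H2-DMb1 was lower at 24 h of LPS than in PBS, by 0.47 on the log2 scale (exact permutation p = 0.0179, two-sided, adjusted p = 0.119). None of the 20 ratio tests passed after adjustment.

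**Figure D3:**
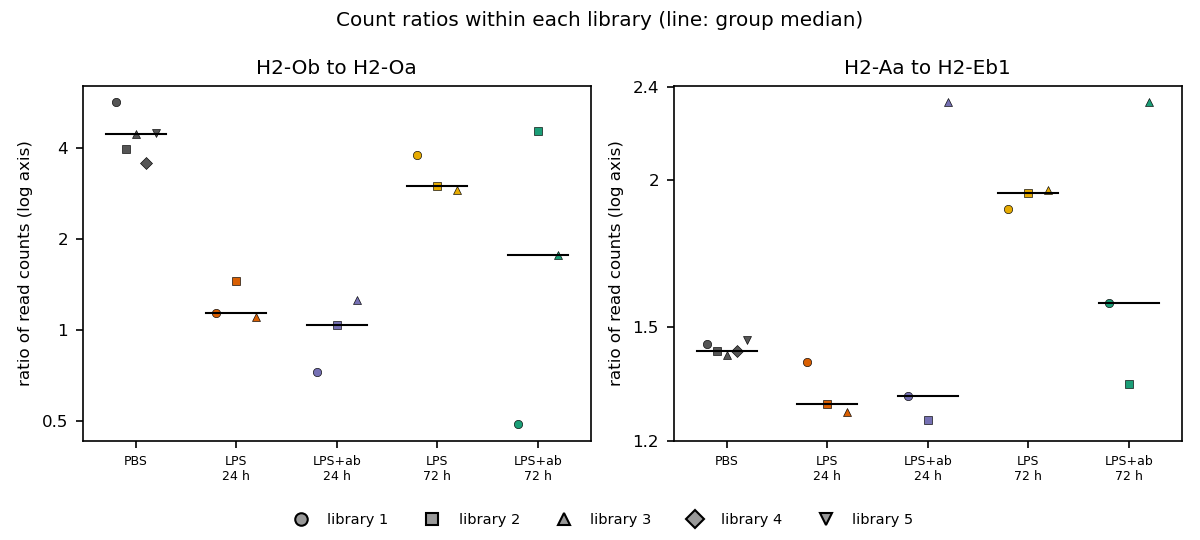
Ratio of read counts of H2-Ob to H2-Oa (left) and of H2-Aa to H2-Eb1 (right) in each library, on log axes, with the line at the group median and the marker shape giving the library number. The H2-Ob to H2-Oa ratio is at least 3.56 in PBS and at most 1.46 in the 6 libraries at 24 h, and the H2-Aa to H2-Eb1 ratio is tight in PBS (1.42 to 1.46) and 2.33 in library 3 of both antibody groups.

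Reads on opposite strands could enter the counts of H2-DMa, H2-Oa and Ciita, since the strand setting of the counting is not given in the sources used here. Exons of H2-DMa overlap Brd2 on the other strand over 10.4% of their bases, and Brd2, a chromatin reader at 338 ± 22.0 CPM in PBS, passed in none of the 9 comparisons. Exons of H2-Oa overlap BC051537 over 22.8% of their bases. BC051537 (5.69 ± 0.607 CPM in PBS) changed as H2-Oa did, falling by 0.86 at 24 h of LPS (edgeR adjusted p = 0.0168), rising by 1.78 from 24 h to 72 h (edgeR adjusted p = 0.000493) and falling by 1.47 with the antibody at 72 h (edgeR adjusted p = 0.00455). Reads on the overlapping bases of H2-Oa and BC051537 cannot be told apart without strand. Ciita overlaps Dexi over 3.45% of its exon bases. Dexi (12.9 ± 1.72 CPM in PBS) fell by 0.57 at 24 h of LPS (edgeR adjusted p = 0.0198), and with the antibody it was lower than in PBS at 24 h (-0.59, edgeR adjusted p = 0.0276) and lower at 72 h than in PBS (-0.84, edgeR adjusted p = 0.0121) and than with LPS alone (-0.78, edgeR adjusted p = 0.0165).

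Among the 7 genes of the complex that Ciita joins (Rfx5, Rfxap, Rfxank, Nfya, Nfyb, Nfyc and Creb1), 3 passed at 24 h of LPS, 1 lower and 2 higher, a share near the 37.6% of all genes that passed. The lower one was Rfx5, the DNA-binding RFX subunit, at 50.1 ± 5.63 CPM in PBS and 33.1 ± 7.54 CPM with LPS (log2 change -0.60, edgeR adjusted p = 0.00551). Rfxank, another RFX subunit (0.51, edgeR adjusted p = 0.0208), and Nfyc, an NF-Y subunit (0.33, edgeR adjusted p = 0.0475), rose. Over all genes 31.1% passed in either direction from 24 h to 72 h of LPS. With the antibody against LPS alone at 72 h 15.1% passed, and in the interaction 6.35%. In each of these comparisons 1 gene of the 7 passed, which did not exceed the background in the first 2. That gene was again Rfx5. It rose by 0.84 to 59.2 ± 5.31 CPM at 72 h (edgeR adjusted p = 0.00144), fell by 0.63 with the antibody at 72 h (edgeR adjusted p = 0.0161), and its antibody difference changed between the times (-0.81, edgeR adjusted p = 0.0452). Its antibody libraries at 72 h, at 38.4, 34.9 and 41.2 CPM, were all below its LPS libraries at 56.7, 55.6 and 65.3 CPM, and library 1 did not stand apart.

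Of 11 genes that induce or repress Ciita, 4 fell at 24 h of LPS and none rose, beside 37.6% of all genes passing in either direction and 18.5% lower. Irf8, a myeloid and B cell factor of the interferon regulatory family, fell by 0.99 from 370.2 ± 103 to 186 ± 100.4 CPM (edgeR adjusted p = 0.0278). The others were Irf2 (-1.03, edgeR adjusted p = 0.00144), Irf4 (-2.31, edgeR adjusted p = 0.00199) and Prdm1, a repressor of Ciita in plasma cells (-2.70, edgeR adjusted p = 0.00563). Irf8, Irf2 and Irf4 were the 3 of the 11 that rose from 24 h to 72 h of LPS, beside 14.7% of all genes. Irf8 reached 562.5 ± 149 CPM (log2 change 1.60, edgeR adjusted p = 0.00442), and it was the 1 gene of the 11 lower with the antibody at 72 h, at 203 ± 57.9 CPM (-1.47, edgeR adjusted p = 0.0147). Over all genes 6.48% were lower with the antibody against LPS alone at 72 h, a share near 1 of 11. With LPS and antibody against PBS, Irf2 and Irf4 were lower at 24 h and Ifngr1, a chain of the interferon gamma receptor, was higher at 72 h (0.61, edgeR adjusted p = 0.0278). Over all genes 12.5% were lower at 24 h and 13.2% passed in either direction at 72 h.

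Of 7 genes for endosomal processing, Ctsb and Lgmn, both proteases, fell at 24 h of LPS (log2 change -1.20, edgeR adjusted p = 0.00599, and -2.72, edgeR adjusted p = 0.00217), and Lgmn rose from 24 h to 72 h (1.94, edgeR adjusted p = 0.0198). The other 5 did not pass in these comparisons. Over all genes 18.5% were lower at 24 h of LPS and 14.7% were higher from 24 h to 72 h. In either direction 37.6% and 31.1% passed, and 15.1% with the antibody against LPS alone at 72 h. With the antibody against PBS 24.2% passed at 24 h and 13.2% at 72 h. The lists here hold 7 or 3 genes, and their counts were not tested against these shares. With antibody at 24 h, Ifi30, a thiol reductase of endosomes, was higher than in PBS (0.98, edgeR adjusted p = 0.0117) and Ctsb and Lgmn were lower, as they also were at 72 h. Of 3 genes for surface turnover of class II, Marchf1, a ligase that removes class II from the surface, fell at 24 h (-2.12, edgeR adjusted p = 0.00817) and rose to 72 h (2.02, edgeR adjusted p = 0.0174). Its relative Marchf8 went the other way at 72 h, falling by 1.04 from 24 h of LPS (edgeR adjusted p = 0.00251), and was higher with the antibody (0.83, edgeR adjusted p = 0.0199). Of 3 costimulatory genes, Cd86 fell at 24 h (-2.41, edgeR adjusted p = 0.0146). H2-Eb2, a further class II beta gene, was low throughout, between 0.185 and 3.30 CPM, and fell at 24 h (-2.26, edgeR adjusted p = 0.0139).

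The libraries were labelled as stem and progenitor cells, and markers of cell types known to carry class II were also measured in them. The list of conventional dendritic cells held 8 genes, of which 5 fell at 24 h of LPS (18.5% of all genes), 6 rose from 24 h to 72 h (14.7% of all genes), 4 fell with the antibody against LPS alone at 72 h (6.48% of all genes) and 3 passed as lower in the interaction (2.32% of all genes). Itgax (CD11c) fell by 1.16 at 24 h (edgeR adjusted p = 0.00903), rose by 1.66 to 72 h (edgeR adjusted p = 0.00218) and fell by 1.98 with the antibody (edgeR adjusted p = 0.00272). Flt3, which early progenitors also express, was far above the others at 445.5 ± 84.9 CPM in PBS and was left out of the sum after this was seen. The other 7 genes summed to between 56.1 and 105 CPM in PBS, 20.8 and 39.1 CPM with LPS at 24 h, 25.3 and 59.8 CPM with antibody at 24 h, 82.1 and 113 CPM with LPS at 72 h, and 31.1 and 41.2 CPM with antibody at 72 h. Cd209a was at 0 in every LPS 24 h library. In antibody 24 h library 1 this sum was the highest of its group and in antibody 72 h library 1 it was not. The part of these cells in the class II differences was not tested.

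The 11 B-lymphoid markers summed to between 142 and 214 CPM in PBS, 43.5 and 82.3 CPM with LPS at 24 h, 50.2 and 111 CPM with antibody at 24 h, 81.8 and 202 CPM with LPS at 72 h, and 46.5 and 116 CPM with antibody at 72 h. Of these 11 genes 4 fell at 24 h of LPS, 1 rose to 72 h and 1 fell with the antibody at 72 h, beside 18.5%, 14.7% and 6.48% of all genes, so the last pair of counts is near the background. The defining marker Ms4a1 was at 3.95 ± 2.03 CPM in PBS and at 0.917 ± 0.951 CPM with LPS at 24 h. All 11 macrophage markers fell at 24 h, from sums between 399 and 2844 CPM to between 132 and 149 CPM. At 72 h of LPS they summed to between 242 and 410.4 CPM, within or below the PBS range. The median log2 change of the 11 from PBS was -4.51 at 24 h and -5.15 at 72 h of LPS, so the sums do not follow most of the markers. At 72 h of LPS none of the 11 passed against PBS, beside 0.0201% of all genes. None of the 5 monocyte markers passed at 24 h, and their sums lay between 286 and 1358 CPM in PBS. Of the 8 stem and progenitor markers, 5 fell at 24 h of LPS, 5 rose to 72 h and 1 fell with the antibody at 72 h. Plasma cell markers fell in 5 of 6 cases at 24 h and rose in 4 to 72 h. Of 7 plasmacytoid dendritic cell markers, 6 fell and 1 rose at 24 h, and 5 rose to 72 h. Their sums lay between 242 and 493 CPM in PBS and between 241 and 455 CPM with LPS at 24 h. The median log2 change of the 7 genes at 24 h of LPS was -3.50, so these sums do not follow most of the markers. With the antibody against LPS alone at 72 h 2 of these 7 fell, and 1 passed as lower in the interaction. Over all genes the shares were 6.48% and 2.32%. The plasma cell, macrophage and T and NK cell lists each had 1 gene lower with the antibody at 72 h, and the macrophage list 1 in the interaction. Of the 7 T and NK cell and 7 erythroid markers 1 each fell at 24 h. The part of these cell types in the class II differences was not tested.

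**Figure D4:**
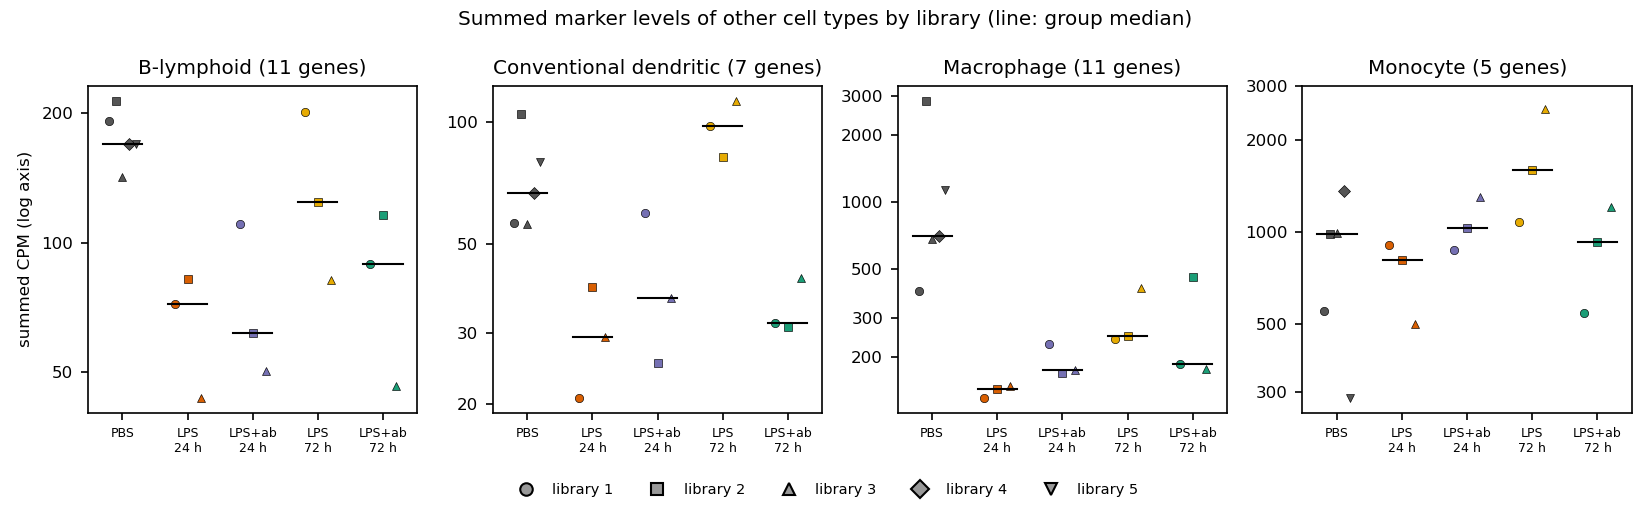
Summed level of 4 marker lists in each library, in TMM-scaled CPM on log axes, with the line at the group median, the marker shape giving the library number and Flt3 left out of the dendritic cell list. The dendritic cell sum is at most 39.1 with LPS at 24 h, at least 82.1 with LPS at 72 h and at most 41.2 with the antibody at 72 h, whereas the macrophage sum is at most 410.4 at 72 h of LPS beside a PBS maximum of 2844.

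The non-member genes closest to H2-Ob over the group means of the 4 LPS groups relative to PBS, out of 11127 candidate genes with a mean of at least 5 CPM, were Rag2, Gm5111, Gm45021, Gprc5b and Ddx4. Rag2, a subunit of the recombinase that assembles antigen receptor genes, differed from H2-Ob by a root mean square of 0.204 on the log2 scale. Its differences from PBS were -2.97 at 24 h of LPS, -2.54 with antibody at 24 h, 0.38 at 72 h of LPS and -1.38 with antibody at 72 h. For Cd74 the closest candidates were Coro7 (root mean square 0.0843), Rnf167, Ppp1r15a, Gm43552 and Macroh2a2. Members were left out of the candidates. Each likeness is over 4 group means and is a description.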

How the data were processed

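The authors deposited 1 table of raw read counts (whole numbers per gene symbol) for the 17 libraries. Per the submitters' processing notes, HISAT2 2.2.0, Subread, featureCounts 2.1.1, R 4.3.2, DESeq2 and the build GRCm38 were used. The annotation, the strand setting and the rule for multimapping reads are not given in the sources used here. Each of the 17 columns matched 1 label, and 0 columns were left unmatched.

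Counts were fitted in R 4.3.3 with edgeR 4.0.16 (quasi-likelihood test, TMM scaling, filterByExpr with a minimum count of 10 and a minimum total count of 15, 1 mean per group over all 17 libraries), with Benjamini-Hochberg adjustment over 14920 genes in each of 9 comparisons and a threshold of 0.05. The fit was run on simulated counts with 200 genes changed in the LPS 72 h group, and read out for LPS at 72 h against PBS. The other comparisons were not covered by this simulation. Levels are CPM scaled by TMM. Depth, 10516722 to 16006001 counts per library, together with 3 to 5 libraries per group, limits the precision of low genes such as H2-DMb2.

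Members and gene lists were chosen with earlier results of these data known. All 10 members are named, and from the lists some of the genes that passed a test, the rest being given by count. Libraries numbered alike were compared by their deviations from group means. For LPS at 24 h against PBS every pair correlated over 0.1 (r = 0.229, 0.183 and 0.183), so the fit with the number as a block is given beside that result. The other comparisons did not meet this. The alternatives were DESeq2 size factors and upper-quartile factors in edgeR, no filter on low counts, DESeq2 1.42.0, a fit of the compared groups alone, the replicate block, each library left out in turn and, chosen after seeing the data, both antibody libraries numbered 1 left out and libraries 1 to 3 with no block. Ratios of counts were tested by exact permutation. Gene positions are from GENCODE M21 and upstream sequences from RefSeq (GRCm38.p6). Some genes of the lists are not reported here.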

Additional observations from a re-analysis of the deposited data

Results flagged for a closer look

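The effect of the IL-10R antibody differed between 24 h and 72 h for 3 class II genes by a test of the difference itself (edgeR's interaction term, adjusted over all genes). H2-DMa had a difference of -1.59 on the log2 scale, H2-Oa of -1.91 and H2-DMb1 of -1.10. The separate antibody effects on H2-DMa were 0.35 at 24 h and -1.24 at 72 h, and those on H2-Oa were 0.54 and -1.37, where only the values at 72 h passed. The H2-DMb1 difference is the least stable of the 3, since 12 of 20 alternative fits lost it, and each of 8 single libraries did so when left out. In the PBS group, the only group large enough for a test of single libraries, none stood apart from the others for any member.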

How the results depend on the processing

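Of 1009 alternative values of the log2 changes of the 9 tested genes, 900 kept their direction and side of the threshold, 43 passed anew, 57 lost the call and 9 reversed. The reversed values were all of genes that had not passed. At 72 h of LPS against PBS, leaving out 1 library gave -0.019 to 0.61 for H2-Aa, -0.060 to 0.43 for Cd74 and -0.067 to 0.91 for Ciita (lowest without LPS 72 h library 3), and -0.43 to 0.19 for H2-Eb1 (above 0 without PBS library 2, PBS library 5 or LPS 72 h library 2), which was 0.039 with the replicate block and 0.033 with libraries 1 to 3 and no block. With antibody at 72 h against PBS, leaving out 1 library gave -0.82 to 0.032 for H2-DMb2 (highest without antibody 72 h library 2). The causes of the changes below were not tested.

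With DESeq2, LPS at 72 h against PBS gave 178 genes and 1 member in place of 3 and 0, the antibody against LPS alone gave 1 gene at 24 h in place of 0 and 6 members at 72 h in place of 3, the antibody groups between times gave 2 genes in place of 0, and the interaction gave 1709 genes in place of 947. Upper-quartile factors gave 6 members for the antibody at 72 h against LPS alone. They also moved the share of called genes that were higher, from 50.7% to 36.8% for LPS at 24 h and from 48.3% to 32.5% and 51.4% to 32.8% for the antibody at 24 h and 72 h (all against PBS), from 57.1% to 42.4% for the antibody at 72 h against LPS alone, from 47.2% to 59.2% for LPS between times and from 63.5% to 49.7% for the interaction, with shifts of the all-gene median to -0.156 for LPS at 24 h, -0.11 for the antibody at 24 h and 0.134 for LPS between times. Without the filter the LPS 24 h median was -0.105, the interaction gave 617 genes, and the antibody at 72 h against PBS gave 1 member in place of 2. Fitting the compared groups alone gave 8 members for LPS at 24 h against PBS in place of 5, 99 genes for LPS at 72 h against PBS, 1123 for the antibody against LPS alone at 72 h in place of 2256, and 286 for the interaction.

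With the replicate block (libraries 1 to 3), LPS at 24 h against PBS kept 3 members, LPS at 72 h against PBS 0 genes, the antibody against PBS 1806 genes and 0 members at 24 h and 539 genes and 0 members at 72 h, and the interaction 478 genes. The same libraries with no block gave 2 members, 0 genes, 1730 genes and 0 members, 548 genes and 0 members, and 605 genes. With both antibody libraries numbered 1 left out, the antibody against PBS gave 6 members at 24 h and 1164 genes and 7 members at 72 h, the antibody against LPS alone at 72 h gave 8 members, and the interaction gave 336 genes.

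Leaving out 1 library at a time gave 3361 to 5443 genes and 2 to 5 members for LPS at 24 h against PBS, 0 to 3 genes for LPS at 72 h against PBS, 877 to 3420 genes and 0 to 4 members for the antibody at 24 h against PBS, 583 to 2066 genes and 0 to 1 members for it at 72 h against PBS, 769 to 2279 genes and 2 to 5 members for it at 72 h against LPS alone, 3199 to 4507 genes and 4 to 8 members for LPS between times, and 231 to 1544 genes and 2 to 4 members for the interaction.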

Other observations

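Together the 10 class II genes took between 0.0953% and 0.164% of all counts in the PBS libraries and between 0.0426% and 0.0610% in the LPS 24 h libraries. At 72 h of LPS the share was between 0.0998% and 0.178%. With the antibody, library 1 had 0.116% at 24 h and 0.110% at 72 h, inside the PBS range, and libraries 2 and 3 had 0.0528% and 0.0483% at 24 h and 0.0582% and 0.0505% at 72 h, inside the LPS 24 h range. H2-Ob and H2-DMa were not highest in antibody 72 h library 1.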
